A study of Saccharomyces cerevisiae with 6 samples.

Results

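The 10 genes described here encode subunits of the TOM and TIM23 translocases, the machines that carry proteins into mitochondria, and they are 10 of the 6032 genes listed. They were taken by name and matched by locus tag to the identifiers in the deposited tables. No threshold on their values was used, but they were chosen with earlier results of these data known. Their transcripts were read by RNA-seq in 3 strains of the budding yeast Saccharomyces cerevisiae, each grown in synthetic medium without uracil and with 20 g/l glucose. One strain had wild-type ASK10 (WT, 2 libraries), another had no ASK10 (deletion, 1 library analysed), and the last had the M475R form of ASK10 (M475R, 2 libraries). The Ask10 protein regulates Fps1, a glycerol channel of the plasma membrane. The first deletion replicate was not analysed here, and the labels do not say whether replicates were separate cultures or whether the alleles sat on a plasmid or in the chromosome.

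Most mitochondrial proteins are made in the cytosol and imported. Their precursors are first bound by receptors of the TOM complex on the outer membrane and pass through the Tom40 channel. Precursors with a cleavable presequence are then handed to the TIM23 complex of the inner membrane, where a motor built around the mitochondrial Hsp70 Ssc1 pulls them into the matrix, while carrier proteins take a separate route through the TIM22 complex.

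Depth set how much could be seen. Total expected counts were 102612 and 51576 in the WT libraries, 117680 in the deletion, and 4155203 and 71228 in M475R replicates 1 and 2, so a TOM or TIM gene had 0 to 44 counts in every library but the deepest, where it had 316 to 2053. ASK10 itself, the check of the labels, had 5 and 7 counts in WT, 0 in the deletion, where a floor of 3 counts is 28.5 CPM (counts scaled by TMM to a common library total), and 567 and 4 in M475R. Counts of both WT libraries differed by no more than counting error (chi-square per degree of freedom 1.005 over 2001 genes), and so did those of both M475R libraries (1.025 over 2876 genes). Each pair was therefore pooled as 1 sample in the count ratios. The edgeR fit took the 5 libraries as separate, so its tests compare these libraries rather than strains, and its p-values carry little beyond counting error. CPM are shares of the reads of a library, so fewer cells with a transcript and less of it per cell cannot be told apart.

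Per length, the genes of this set were well expressed and spread over a several-fold range. In M475R replicate 1, the only library deep enough to order them, TOM22 stood highest at 477 FPKM (per kilobase and library depth, as deposited; 95% Poisson interval 445 to 511), followed by TOM20 at 422, TIM17 at 396 and TOM40 at 387. TIM23 came next at 328, then TOM70 at 273, PAM16 at 264 and TIM50 at 220. TIM21, at 114, and TOM71, at 81.4 (75.2 to 88), were lowest, against a median of 53 over all listed genes in that library. The intervals of neighbours overlapped between TOM22 and TOM20, TOM20 and TIM17, TIM17 and TOM40, and TOM70 and PAM16, and did not overlap at the other steps of the order.

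**Figure D1:**
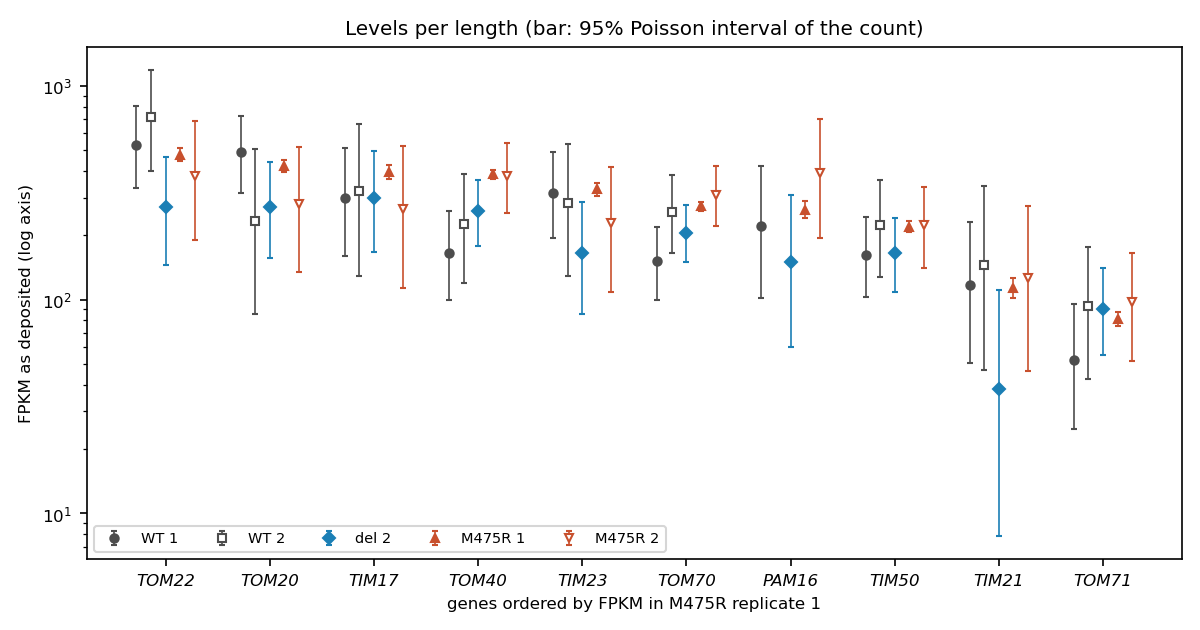
Level per length of the 10 genes (FPKM as deposited, log axis) in each of the 5 libraries, with bars for the 95% Poisson interval of the count. Genes run from TOM22 to TOM71 in the order of M475R replicate 1, whose short bars separate TIM21 and TOM71 from the rest, while the long bars of the shallow libraries overlap between neighbours. PAM16 has no point in WT replicate 2, where its count was 0.

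The shallow libraries did not fix an order. TOM22 was first in both WT libraries, at 531 and 718 FPKM, TIM17 in the deletion, at 300, and PAM16 in M475R replicate 2, at 390. TOM71 was last in WT replicate 1 and in both M475R libraries, and TIM21 in the deletion, at 38.1 FPKM from 3 counts. In these 4 libraries no neighbouring pair with counts could be told apart by its intervals.

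Transcripts of the channel and the carrier receptor of the outer membrane were called higher in M475R than in WT. Both calls were lost when certain single libraries were left out, as given below. TOM40, the channel through which nearly all precursors pass, had 205 and 276 CPM in WT, 323 in the deletion, and 468 and 452 in M475R. Both M475R libraries lay above both WT libraries, and the deletion lay between them. The ratio of M475R to WT was 2.05 (exact 95% interval 1.44 to 3), with a log2 fold change of 1.03 ± 0.23 (SE) and an adjusted p of 0.000179 by edgeR's quasi-likelihood test with Benjamini-Hochberg adjustment over all genes tested. TOM70, the receptor for carrier precursors and a docking site for cytosolic chaperones, had 301 and 510 CPM in WT, 419 in the deletion, and 536 and 602 in M475R. The M475R libraries again lay above both WT libraries, WT replicate 2 being the closer. The TOM70 ratio was 1.45 (1.1 to 1.94), with a log2 fold change of 0.53 ± 0.20 (SE, edgeR adjusted p = 0.0407).

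These were 2 of the 9 members that passed the filter on low counts, beside 8.46% of all 2909 genes tested that were called higher and 10.1% that were called lower. No member was called lower. The median log2 fold change of the 9 was 0.29, against 0.012 over all genes tested. Taken alone, the shallow M475R replicate 2 gave ratios to WT of 1.98 (1.16 to 3.36) for TOM40 and 1.62 (1.05 to 2.5) for TOM70. The labels give no reason for the gap in depth between the M475R libraries and do not say that they are independent cultures. Both calls depended on single libraries. Without WT replicate 1 the TOM70 log2 fold change was 0.09 (edgeR adjusted p = 0.915) and that of TOM40 was 0.77 (0.242). Without M475R replicate 1 they were 0.74 (0.144) and 1.02 (0.0715), and TOM70 also missed the threshold without M475R replicate 2 (0.54, 0.054). At an unadjusted edgeR p under 0.05 there were the same 2 members, beside 27.9% of all genes tested. DESeq2 gave an adjusted p to 3 of the 9 and called 0, beside 14.1% of the genes to which it gave one (DESeq2 adjusted p = 0.126 for TOM40 and 0.448 for TOM70).

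**Figure D2:**
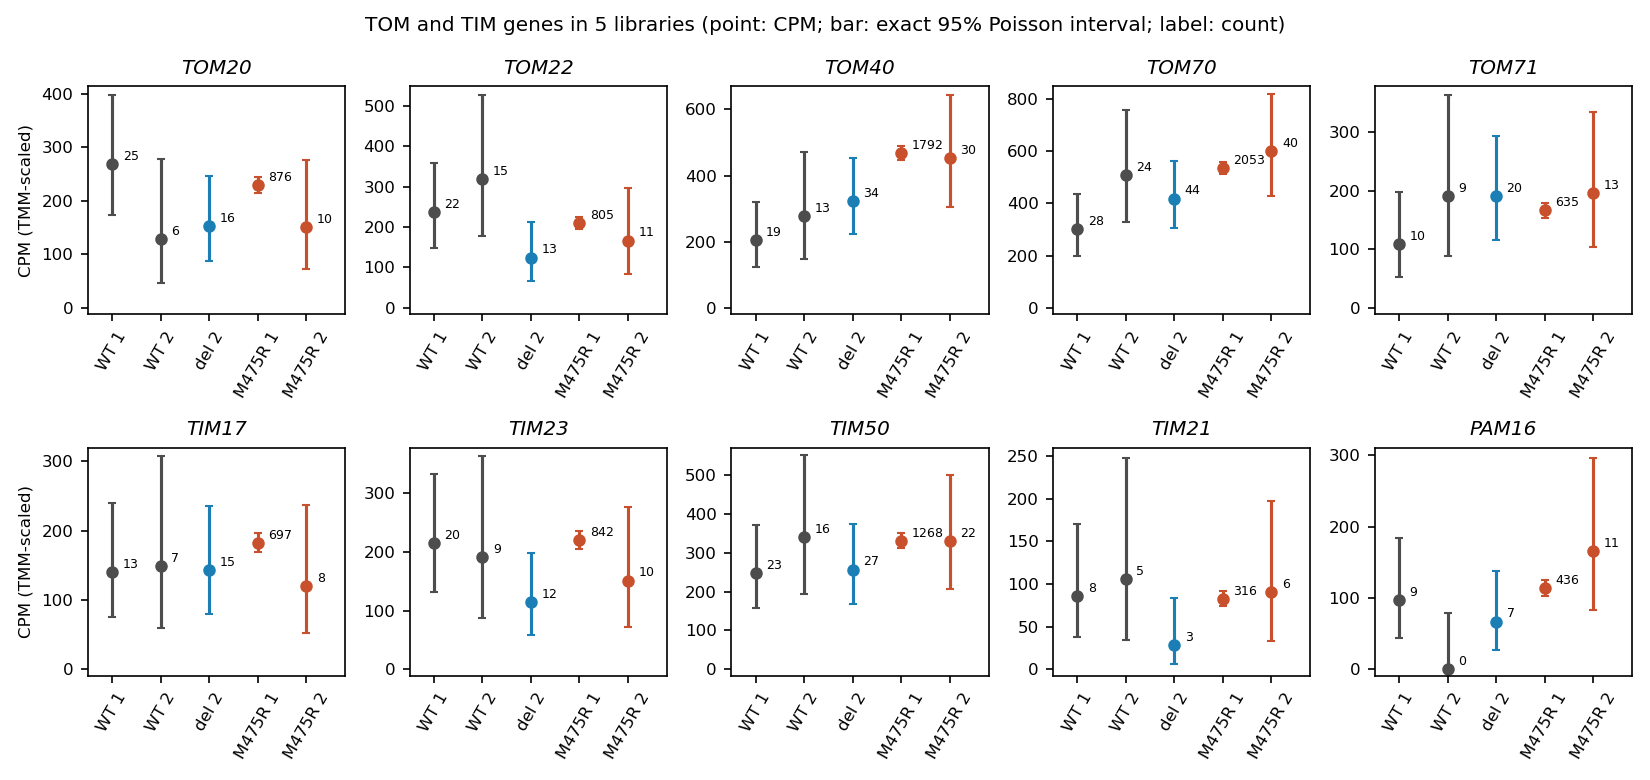
CPM of each gene in the 5 libraries, with exact 95% Poisson intervals and the count beside each point; at 0 counts, as for PAM16 in WT replicate 2, the bar is the interval's upper bound, 78.4 CPM, and not the floor of 3 counts. TOM40 stands at 468 and 452 CPM in M475R and at 205 and 276 in WT, whereas the libraries of most other genes overlap.

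The presequence receptors did not pass the test. TOM22, the central receptor that holds the complex together, had 237 and 319 CPM in WT, 124 in the deletion, and 210 and 166 in M475R. WT was the highest strain and the deletion the lowest, with no overlap. The ratio was 0.468 (0.228 to 0.9) for the deletion over WT, and 0.793 (0.57 to 1.13) for M475R over WT. Neither passed the test across all genes (edgeR adjusted p = 0.36 and 0.416; the unadjusted p of the deletion was 0.0131). TOM20, the receptor that binds presequences first, had 269 and 128 CPM in WT, 152 in the deletion, and 229 and 151 in M475R. Its 2 WT libraries spanned the other 3, and the ratio of M475R to WT was 1.03 (0.718 to 1.52). TOM71, the less abundant paralogue of TOM70, had 108 and 191 CPM in WT, 190 in the deletion, and 166 and 196 in M475R, with a ratio of 1.23 (0.779 to 2.05) and overlapping libraries.

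In M475R against WT, 3 of the 9 tested members had M475R libraries above both WT libraries (TOM40, TOM70 and PAM16), where 28.0% of all genes tested did. PAM16 reached the limit of the filter in the M475R libraries alone, so its place above WT is tied to its being tested. Only TOM22 had them below, where 26.1% did.

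The core of the TIM23 complex was not called different between M475R and WT. TIM23, a channel-forming subunit that also gives the complex its name, had 215 and 191 CPM in WT, 114 in the deletion, and 220 and 151 in M475R. The WT and M475R libraries overlapped, with a ratio of 1.06 (0.73 to 1.59), and the deletion was lowest. TIM17, its partner in the membrane, had 140 and 149 CPM in WT, 143 in the deletion, and 182 and 120 in M475R, with a ratio of 1.27 (0.814 to 2.09). TIM50, the receptor that takes over presequences in the intermembrane space, had 248 and 340 CPM in WT, 257 in the deletion, and 331 in both M475R libraries, with a ratio of 1.19 (0.865 to 1.68). None of these 3 passed (edgeR adjusted p = 0.884, 0.531 and 0.533), and their intervals reach up to differences of 1.59-fold, 2.09-fold and 1.68-fold.

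The 2 remaining members were read too few times for a firm statement. PAM16, a subunit of the import motor that holds the J-protein Pam18 in check, had 96.9 CPM in WT replicate 1, 0 counts in WT replicate 2 (where a floor of 3 counts is 63.8 CPM), 66.6 CPM in the deletion, and 114 and 166 in M475R. The M475R libraries were highest, with a ratio to WT of 1.79 (0.932 to 3.93; edgeR adjusted p = 0.2). TIM21, which links the TIM23 complex to the TOM complex and to the respiratory chain, had 86.1 and 106 CPM in WT, 28.5 in the deletion, and 82.6 and 90.3 in M475R. It fell below the filter on low counts and was not tested. The deletion lay under the other 4 libraries, with 3 counts and a ratio to WT of 0.307 (0.0562 to 1.12).

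**Figure D3:**
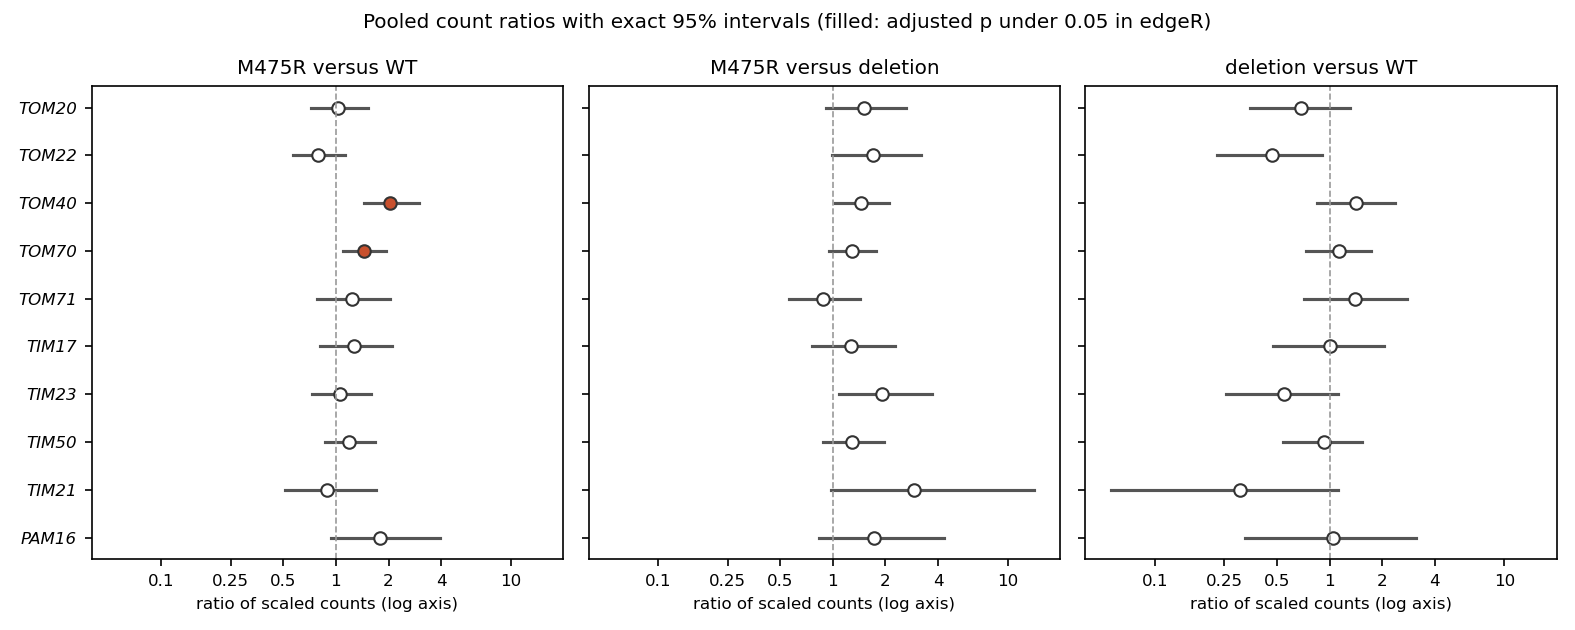
Ratio of scaled counts between strains for the 10 genes (log axis), with exact 95% intervals and filled points where the edgeR adjusted p was under 0.05. Filled points are TOM40 and TOM70 in M475R against WT, and the TOM22 interval of the deletion against WT, 0.228 to 0.9, lies below 1.

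Between M475R and the deletion no member passed by edgeR (0 of 9, beside 10.3% of genes called, 4.09% higher and 6.19% lower). DESeq2 gave an adjusted p to 4 of the 9 and called 0, beside 6.39% of the genes to which it gave one. At an unadjusted edgeR p under 0.05 there were 3, beside 20.8% of all genes tested. They were TIM23, with a ratio of 1.92 (1.09 to 3.72; adjusted p = 0.0925), TOM40, with 1.45 (1.03 to 2.1; 0.159), and TOM22, with 1.69 (0.986 to 3.2; 0.203). The median log2 fold change of the 9 was 0.53, against 0.012 over all genes tested. Of the 10 genes, 9 had a ratio above 1, TOM71 (0.875, 0.562 to 1.44) being the other, where 58.1% of all listed genes with a count did. The exact interval lay above 1 for TOM40 and TIM23 (2 of 10, beside 5.18% of listed genes) and below 1 for 0 (beside 6.52%). Of the 9 tested, 6 had both M475R libraries above the deletion and 0 below, where 38.8% of all genes tested did in each direction. PAM16 was 1 of the 6 and reached the limit of the filter in the M475R libraries alone. Its place above the deletion is thus tied to its being tested, and it counts towards the median of the 9. All these values rest on 1 deletion library and share it.

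Between the deletion and WT, too, no member passed (0 of 9 by edgeR and 0 by DESeq2, beside 0.688% of genes called by edgeR, 0.481% higher and 0.206% lower, and 0.138% by DESeq2). Only TOM22 had an unadjusted edgeR p under 0.05, beside 8.35% of all genes tested. The median log2 fold change was -0.00, against -0.002 over all genes. The ratios ran from 0.307 for TIM21 to 1.41 for TOM40 (0.847 to 2.37), and 4 of 10 exceeded 1, where 50.9% of listed genes with a count did. The exact interval lay below 1 for TOM22 alone (beside 1.88% of listed genes) and above 1 for 0 (beside 2.52%). The deletion lay above both WT libraries in 1 of the 9 tested members and below both in 2, where 34.1% and 30.5% of all genes tested did.

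The authors' 7 full deposited tables compare single libraries, the same ones as above. Their 6 filtered lists, which include M475R against WT by strain, held 0 entries for the members. For M475R replicate 1 over WT replicate 1 they give a log2 ratio of 1.22 for TOM40 and 0.86 for TOM70. Over WT replicate 2 the same M475R library had 0.77 for TOM40 and 0.09 for TOM70. M475R replicate 2 over WT replicate 2 had 0.74 and 0.27.

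Within the TOM complex the balance of receptor and channel transcripts differed between libraries. TOM22 made up 53.7% (exact 95% interval 37.4 to 69.3) and 53.6% (33.9 to 72.5) of the summed TOM22 and TOM40 counts in the WT libraries. In the deletion it made up 27.7% (15.6 to 42.6), and in M475R 31% (29.2 to 32.8) and 26.8% (14.2 to 42.9). Both WT libraries lay above the other 3, although their intervals overlapped those of the deletion and of M475R replicate 2. Per length, the TOM22 level was 3.19 and 3.18 times that of TOM40 in WT, 1.05 times in the deletion, and 1.23 and 1.01 times in M475R. This pair was picked with its values in view, so it is a description without a test.

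For TOM71 with TOM70, and for TIM17 with TIM23, the intervals of all libraries overlapped. TOM71 made up 26.3% and 27.3% of the TOM70 and TOM71 counts in WT, 31.2% in the deletion, and 23.6% and 24.5% in M475R. TIM17 made up 39.4% and 43.8% of the TIM17 and TIM23 counts in WT, 55.6% in the deletion, and 45.3% and 44.4% in M475R. TOM20 made up 47.2% and 20% of the TOM20 and TOM70 counts in the WT libraries, which thus lay on either side of the deletion (26.7%). Of all counts of the 10 genes, the 5 TOM genes held 58.8% and 64.4% in WT, 66.5% in the deletion, and 63.4% and 64.6% in M475R.

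**Figure D4:**
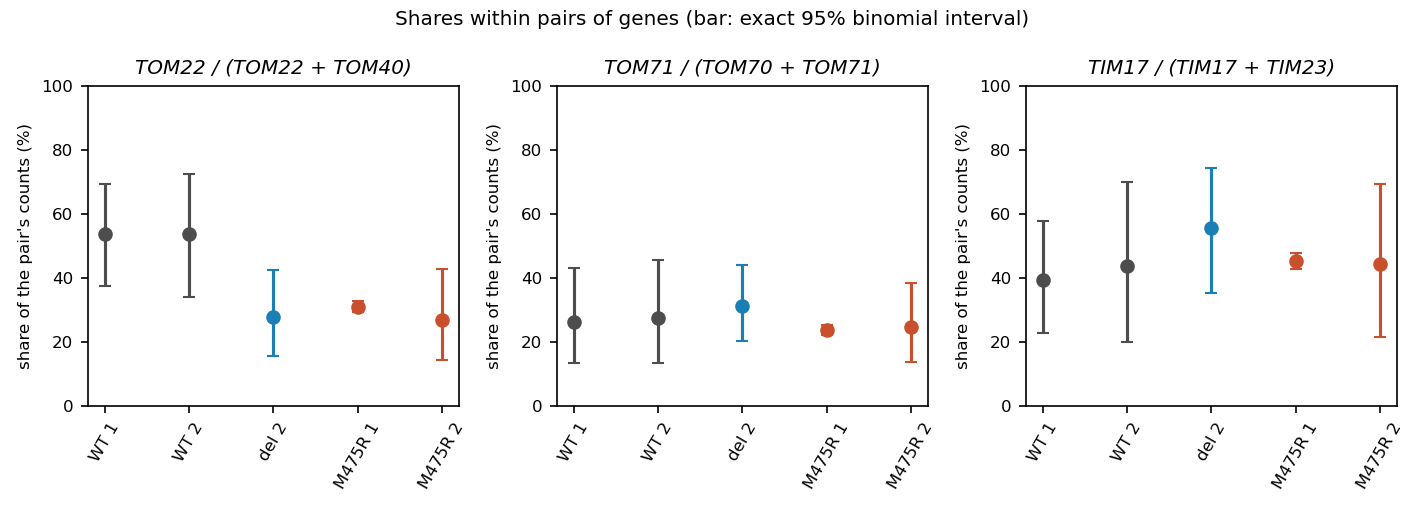
Share of a pair's counts taken by 1 gene in each library (percent), with exact 95% binomial intervals. The TOM22 share stands near 53.6% in both WT libraries and between 26.8% and 31% in the other 3, while the TOM71 and TIM17 shares overlap across libraries.

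Summed over the 5 TOM genes, the level was 1222 CPM (95% Poisson interval 1046 to 1419) in WT, 1208 (1007 to 1437) in the deletion and 1609 (1570 to 1649) in M475R. Summed over the 5 TIM23 complex genes it was 786 (646 to 947), 609 (469 to 777) and 929 (899 to 960). By library the TOM sum was 1120 and 1424 CPM in WT and 1610 and 1566 in M475R. The WT replicate 2 interval, 1104 to 1808, covered both M475R values. The TOM difference lay mainly in TOM40 and TOM70, at 229 and 372 CPM in WT and 468 and 538 in M475R. TOM20, TOM22 and TOM71 had 222, 264 and 136 CPM in WT and 228, 210 and 166 in M475R. The sums are a description, with no test.

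Elsewhere in the import pathway, SSC1, MIA40, MAS1, MAS2, TIM10, PAM17 and PAM18 were called higher in M475R than in WT. They were 7 of the 17 that could be tested among 36 other import genes, and 0 were called lower, beside 8.46% of all genes tested called higher and 10.1% lower. The 36 were chosen with earlier results of these data known, so these numbers describe the list and do not test it. Of the 17, 7 reached the limit of the filter in no WT library, so that they were tested through strains where they were high. MAS1 and PAM18 were among these, and 5 of the other 10 were called. Of the presequence translocase and motor genes 3 of 6 tested were called, and of the peptidases 2 of 3 tested. The carrier translocase and small TIM chaperones had 1 of 3 tested called, and intermembrane space oxidation 1 of 1. Outer membrane insertion had 0 of 3 and inner membrane insertion 0 of 1. SSC1, the motor Hsp70, had 1216 and 1126 CPM in WT, 1494 in the deletion, and 2895 and 2529 in M475R. Its ratio of M475R to WT was 2.44 (2.09 to 2.86, edgeR adjusted p = 8.12e-25), though the near paralogue ECM10 could share its reads. MIA40, which oxidises and traps small proteins in the intermembrane space, had 248 and 234 CPM in WT, 295 in the deletion, and 684 and 828 in M475R. Both genes kept the strains apart without overlap, and the MIA40 ratio of M475R to WT was 2.83 (2.02 to 4.09, edgeR adjusted p = 4.98e-10).

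MAS1 and MAS2 encode the subunits of the peptidase that removes presequences. MAS1 had 86.1 and 63.8 CPM in WT, 209 in the deletion, and 263 and 241 in M475R, with a ratio of M475R to WT of 3.35 (1.86 to 6.72, edgeR adjusted p = 1.69e-05). MAS2 rose by 0.89 ± 0.30 on the log2 scale (SE, edgeR adjusted p = 0.0201). TIM10, a small chaperone of the carrier route, rose by 1.49 ± 0.33 (edgeR adjusted p = 0.000143). PAM17, a subunit of the motor, had 53.8 and 170 CPM in WT, 162 in the deletion, and 189 and 181 in M475R. Its M475R libraries lay above both WT libraries but near WT replicate 2, and the log2 fold change was 1.03 ± 0.35 (SE, edgeR adjusted p = 0.0263). PAM18, the J-protein that stimulates Ssc1, was called at 1.40 ± 0.51 (SE, edgeR adjusted p = 0.0329) after passing the filter through M475R replicate 1 alone. It had 6 counts in both WT libraries together, and its M475R libraries, at 115 and 45.2 CPM, overlapped those of WT, at 53.8 and 21.3.

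With each library left out in turn, the log2 fold change of M475R over WT was 1.14 to 1.35 for SSC1 and 1.48 to 1.80 for MIA40. It was 1.61 to 2.06 for MAS1, which reached the limit of the filter in no WT library and had 11 counts in WT. The other 4 did not pass in every such run. Without WT replicate 1 the log2 fold change was 0.17 for PAM17 (edgeR adjusted p = 0.906), 1.05 for TIM10 (0.274), 1.00 for MAS2 (0.314) and 2.42 for PAM18 (0.257). Without M475R replicate 1 it was 0.99 for PAM17 (0.379), 1.31 for TIM10 (0.166) and 1.11 for MAS2 (0.153). Without WT replicate 2 it was 0.85 for MAS2 (0.11) and 1.07 for PAM18 (0.279), whereas PAM17 passed at 1.81 (0.00551).

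Against the deletion, 5 of the 17 were called higher in M475R (4.09% of all genes tested were) and 0 lower. They were SSC1 at 0.92 (edgeR adjusted p = 2.98e-11), MIA40 at 1.23 (1.19e-05), TIM10 at 1.46 (0.00271), MAS2 at 1.03 (0.0404) and OXA1 at 1.14 (0.0308). OXA1 inserts proteins into the inner membrane from the matrix side. Of the 17, 8 did not reach the limit of the filter in the deletion and were tested through other strains. OXA1 and TIM10 were among these, and 3 of the other 9 were called. Without M475R replicate 1, TIM10, MAS2 and OXA1 missed the threshold (edgeR adjusted p = 0.28, 0.186 and 0.308). Between the deletion and WT 0 of the 17 were called by edgeR and 0 by DESeq2, beside 0.688% and 0.138% of all genes tested. At an unadjusted edgeR p under 0.05 there was 1, MAS1 (log2 fold change 1.41, adjusted p = 0.276), beside 8.35% of all genes tested. MAS1 reached the limit of the filter in no WT library and was tested through the other strains, where it was higher.

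The other import genes with the most counts did not pass. MGE1, the nucleotide exchange factor of Ssc1, had a log2 fold change of 0.05 against WT (edgeR adjusted p = 0.906). TIM44, which ties the motor to the channel, stood at 0.56 (0.109), TIM54 of the carrier translocase at 0.56 (0.216), and SAM35 of the outer membrane insertion machinery at 0.48 (0.427).

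Over all 36, tested or not, the M475R to WT ratio had an exact interval above 1 for 11 genes and below 1 for 0, beside 8.10% above and 7.73% below among all listed genes with a count. The ratio itself exceeded 1 for 34 of the 36, where 59.6% of all listed genes did. MIM2 and SOM1 had 0 counts in WT, so their ratios were bound to exceed 1, as for any listed gene without WT counts. MIM2 was also among the 11, as were OCT1 and SAM37, with 3 and 4 counts in WT. The 19 untested genes had 0 to 9 counts in WT. Among them were the small TOM subunits TOM5, TOM6 and TOM7, with 102, 190 and 66 counts in M475R replicate 1 and 0 to 5 in every other library.

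**Figure D5:**
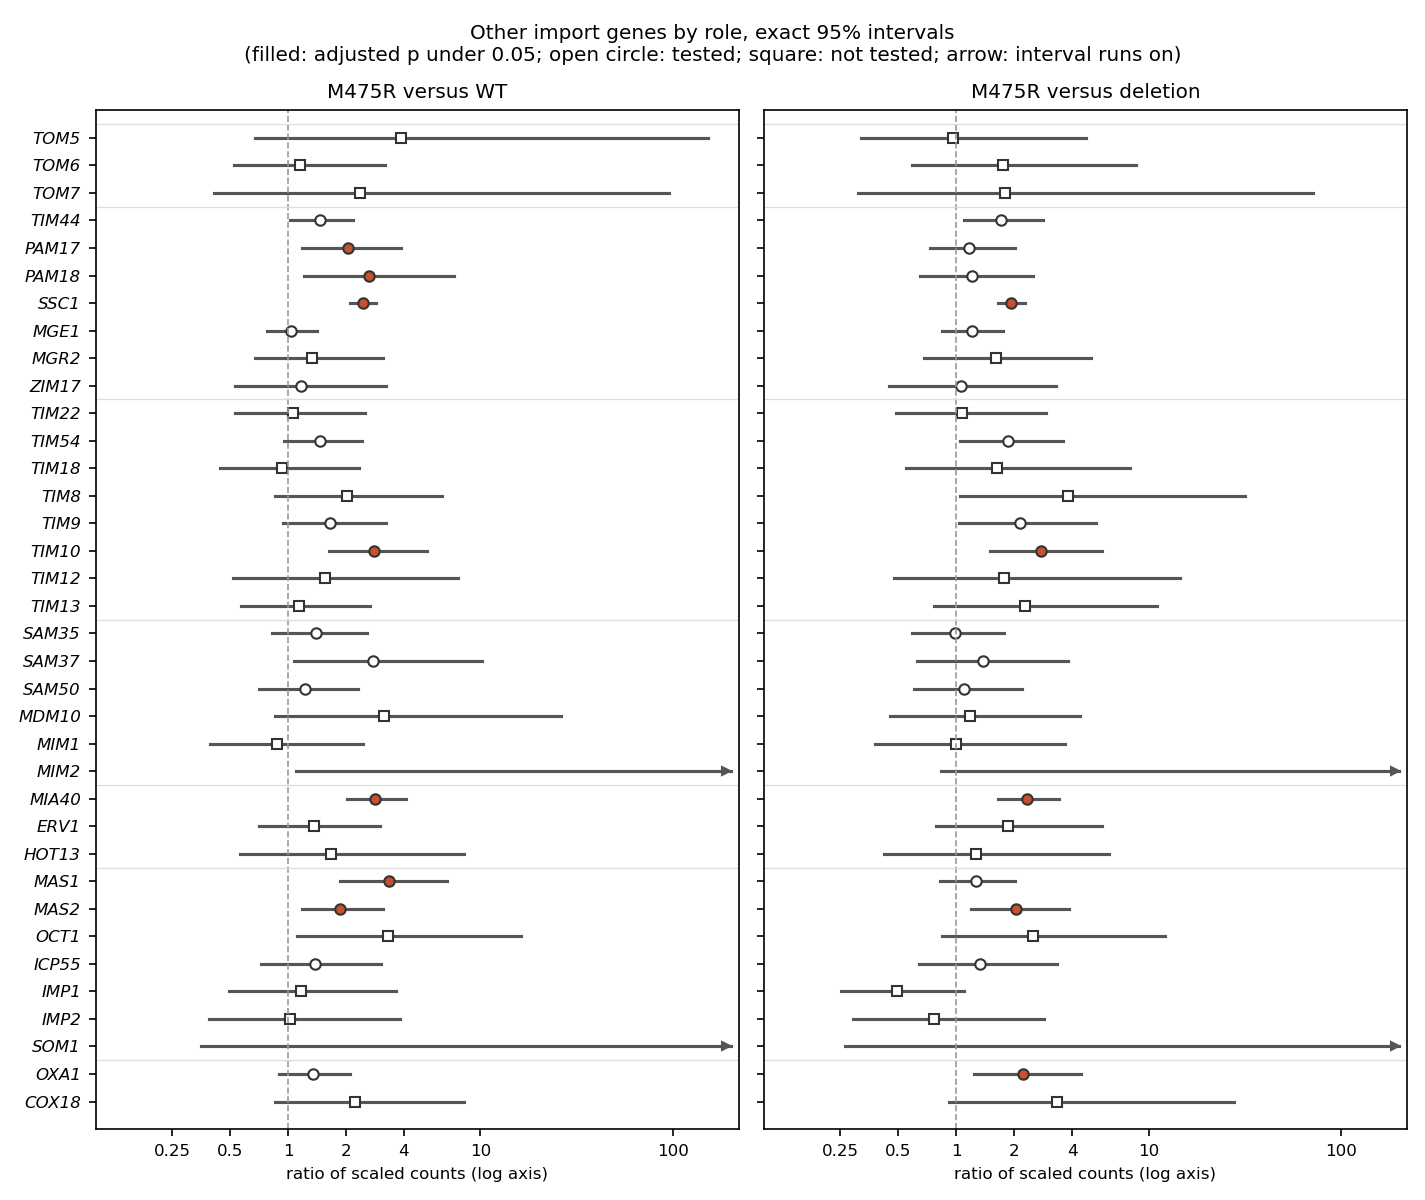
Ratio of scaled counts for the 36 other import genes, grouped by role (log axis), with exact 95% intervals. Circles are genes that could be tested, filled where the edgeR adjusted p was under 0.05, and squares are genes below the filter; genes with 0 counts in the reference strain have an interval but no point. Filled points number 7 against WT and 5 against the deletion, and all lie above 1.

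By the distance between log2 ratios over the 3 strains, the genes nearest to the summed counts of the 10 were PFK1, a subunit of phosphofructokinase (distance 0.061), and the ergosterol synthesis genes ERG1 (0.061) and ERG25 (0.118). The summed counts had log2 ratios of 0.338 for M475R to WT and -0.144 for the deletion to WT, and PFK1 had 0.313 and -0.088. They were taken from 263 genes with at least 100 counts in WT, and with 3 strains the likeness rests on 2 ratios.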

How the data were processed

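The libraries came from fragmented mRNA, copied to cDNA and amplified by PCR, per the labels' protocols. The submitters' processing notes name BWA and Bowtie; build, annotation and counting tool are not given in the sources used here. For each library the 7 deposited tables hold, per the file headers, an expected count and an FPKM (0 set to 0.001), beside the authors' log2 ratio and FDR, the latter not used as a p-value of this work because some exceed 1. The 20 per-sample columns of the filtered lists were not used. Identifiers name strain CEN.PK113-7D; 5515 of 6032 matched assembly R64 by locus tag, used for names only.

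Expected counts were rounded and fitted with edgeR 4.0.16 (R 4.3.3, limma 3.58.1): TMM, filterByExpr on the strains (2909 genes kept), strain as the term, 5 libraries in 1 quasi-likelihood fit, Benjamini-Hochberg over all genes, threshold 0.05. The lone deletion library borrowed its spread from the rest. Each SE is the absolute log2 fold change divided by the square root of the F statistic of the edgeR test. It is therefore no measure of spread separate from the p-value. The common dispersion was 0.00101 (biological coefficient of variation 3.18%), with 2 residual degrees of freedom and spread shared across genes. With 1 library in a strain the filter could keep a gene through the strain where it was high. Count ratios pool a strain's libraries, divide by their TMM-scaled totals and carry exact conditional-binomial 95% intervals, 30 for the members; these, Poisson intervals and the floor of 3 counts cover counting error only, as PCR copies are not independent molecules. M475R ratios mostly reflect its deep replicate 1. FPKM intervals scale the count's interval. DESeq2 1.42.0 was an alternative.

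The 10 genes, the other import genes and the pairs were chosen with earlier results of these data known. All 10 are named, and of the 36 others each called in any comparison and the 4 others with most counts.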

Additional observations from a re-analysis of the deposited data

How the results depend on the processing

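Shallow libraries limit all values but those within M475R replicate 1, and genes under about 10 counts in a strain could show only several-fold differences. The number of members called higher in M475R than in WT, 2, became 1 under DESeq2-style size factors (RLE) and without the filter on low counts, and 0 with the biological coefficient of variation fixed at 20% and under DESeq2; leaving out 1 library gave 0 to 2. Without WT replicate 1 the member called was PAM16, whose only other WT library had 0 counts. TOM40 lost its call at that fixed variation (edgeR adjusted p = 0.182), and TOM70 there (0.577), under RLE (0.0585) and without the filter (0.0888). The 7 other import genes called against WT became 4 without the filter, 3 at the fixed variation and 2 under DESeq2, and 3 to 7 on leaving out 1 library. The 5 called against the deletion became 3, 0 and 2 under these, 2 with the replicate block, and 2 to 5 on leaving out 1 library. DESeq2 gave no adjusted p for 6 of 9 members and 13 of 17 other import genes against WT, which are not counted. For M475R against the deletion it gave none for 5 of 9 members and 13 of 17 other import genes. Replicate numbers did not pair the samples (correlation of same-numbered deviations -0.027); with the replicate block 2 members and 6 other import genes were called against WT. Members called in the comparisons with the deletion numbered 0 under each alternative run. Some log2 fold changes that were not called changed sign, and none of these was called; the cause was not tested. For M475R over WT, leaving out 1 library gave TOM20 -0.50 to 0.85, TOM71 -0.19 to 0.62, TIM17 -0.20 to 0.40, TIM23 -0.41 to 0.21, TIM50 -0.02 to 0.42 and MGE1 -0.33 to 0.17. The fixed variation gave TOM20 -0.04, TIM23 -0.03 and MGE1 -0.09, the replicate block TOM20 -0.16 and TIM23 -0.04, and DESeq2 MGE1 -0.13. For M475R over the deletion, leaving out 1 library gave TOM71 -0.19 to 0.08, TIM17 -0.20 to 0.38, MGE1 -0.13 to 0.29 and SAM35 -0.39 to 0.01. The replicate block gave TOM20 -0.18, TOM71 0.19, TIM17 -0.02 and PAM18 -1.07, and total count scaling SAM35 0.04. For the deletion over WT, leaving out 1 library gave TOM20 -0.83 to 0.25, TOM70 -0.29 to 0.46, TOM71 -0.01 to 0.81, TIM17 -0.07 to 0.02, TIM50 -0.41 to 0.04, PAM16 -0.55 to 9.05 (against the WT library with 0 counts), TIM10 -0.43 to 0.33 and PAM17 -0.08 to 1.58. The replicate block gave TOM20 0.02, TOM70 -0.03 and TIM17 0.25, and DESeq2 TIM10 -0.03.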
